A study of Canis lupus familiaris with 12 samples.

Results

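The average response to Yoda1 over 12 h and 24 h was measured with all 12 libraries of the series, 6 with Yoda1 and 6 without. MDCK cells, an established line of epithelial cells from dog kidney that forms polarised sheets in culture, were given 25 µM Yoda1 for 12 h (T1) or 24 h (T2), and each time had its own control group (C1 and C2) and 3 libraries per group. Assignment to Yoda1 or control came from the sample titles and treatment labels, and the time of the controls from the deposited sample sheet. The sources used here give neither the vehicle of the controls nor whether replicates were separate cultures. The p-values therefore rest on differences among these libraries, which could be technical. A single line, dose and lane were used, and the sources name no other agonist and no cells without the channel.

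Piezo1 is a channel of the plasma membrane that opens when the membrane is stretched and lets in cations, calcium among them. Yoda1 binds the channel and favours its open state without a mechanical stimulus. In epithelia Piezo1 is known for its part in sensing crowding and stretch, with effects on cell division, extrusion and junctions. No gene of the files carries the symbol PIEZO1, so its own transcript was not followed here.

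Each gene was given one log2 fold change, the average shift of the Yoda1 libraries from the control libraries of their own time, from a model with time as an additive term. Library totals ran from 20709218 to 38889592 expected counts. Genes with symbols received all but 33.1% to 34.1% of the counts, and genes without a symbol are counted but not described. Along the first principal component (21.3% of the variance) all 6 Yoda1 libraries lay on one side of all 6 control libraries. Of 12 epithelial markers, 5 have a symbol in the files (CDH1, KRT18, CLDN7, ESRP1 and GRHL2), and their summed level was 2310 to 2610 CPM (counts scaled to one common library size) in control libraries and 1530 to 2000 CPM in Yoda1 libraries. The 10 fibroblast markers summed to 4.76 to 6.52 CPM in control and 3.36 to 5.97 CPM in Yoda1 libraries, and LUM and DCN were at 0 in every library. Endothelial markers summed to 113 to 218 CPM in control and 103 to 134 CPM in Yoda1 libraries, nearly all of it FLT1, with TEK and CDH5 near 0. Immune markers summed to 907 to 1260 CPM in control and 841 to 1080 CPM in Yoda1 libraries, of which 1 of the 2 identifiers that carry the symbol CD79A made up nearly all, while PTPRC averaged 0.027 CPM in control libraries.

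The Yoda1 main effect is an average over both times, and a call does not require a response at each. It was called for 3638 of 14169 genes tested, or 25.7%, at an adjusted p under 0.05 in edgeR's quasi-likelihood test (called genes below). Of these, 1767 genes rose (12.5% of those tested) and 1871 fell (13.2%). Among called genes the median fall was larger than the median rise. The median called gene that rose was 1.23-fold higher and the median called gene that fell was 1.34-fold lower, while the median log2 fold change over all genes tested was near 0, at -0.004. At 2-fold or more, 47 genes rose (0.332%) and 271 fell (1.91%), and at 1.5-fold or more 159 rose (1.12%) and 649 fell (4.58%). The split between directions moved with the scaling: 48.6% of called genes were higher with TMM scaling, 60.6% with scaling by library size alone, and 66.2% with limma on log2(TPM + 1).

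Direction also varied with the level of a gene. Among 1903 genes with a mean under 1 CPM, 39 rose and 179 fell, and among 2883 genes from 1 to 10 CPM, 164 rose and 412 fell. Genes from 10 to 100 CPM leaned the other way, with 1160 of 6934 higher and 814 lower. Among the 2449 genes at 100 CPM or more, 404 rose and 466 fell, an order that turned with the scaling, to 546 higher and 350 lower with library size and 556 higher and 292 lower with log2(TPM + 1). Below 1 CPM the count of lower genes was also above that of higher genes with scaling by library size, DESeq2, limma voom and both TPM fits, at 42 higher and 163 lower with library size and 56 higher and 124 lower with log2(TPM + 1). From 1 to 10 CPM the lean to lower genes narrowed with the scaling. It was 223 higher and 359 lower with library size and 267 higher and 301 lower with log2(TPM + 1).

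**Figure D1:**
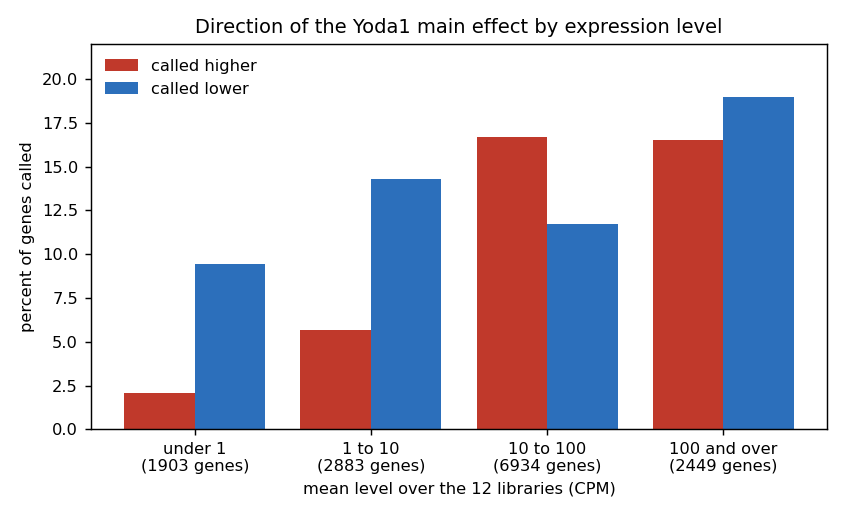
Percent of genes called higher (red) and lower (blue) for the Yoda1 main effect, in 4 classes of mean level over the 12 libraries (CPM, number of genes under each class). Lower calls exceed higher calls below 10 CPM (179 against 39 and 412 against 164), and higher calls exceed lower ones from 10 to 100 CPM (1160 against 814). With log2(TPM + 1), not drawn, the class from 1 to 10 CPM had 301 lower and 267 higher.

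Pooling the times brought in genes called at neither single time. In a model with a mean per group, which takes 1 estimate of the spread from all 12 libraries, 990 genes (6.99%) were called at 12 h and 2630 (18.6%) at 24 h. Separate fits to the 6 libraries of each time gave the opposite order, with 1717 genes at 12 h and 1131 at 24 h, so these counts do not rank the times. Calls at a single time below are those of the model with a mean per group. The pooled model called 629 of the 634 genes called at both times, which are 17.3% of its calls. It called 1474 genes (40.5% of its calls) that of the single times only 24 h called, and 269 (7.39%) that only 12 h called. It also called 1266 genes (8.93% of those tested) that neither time called, 638 higher (4.5%) and 628 lower (4.43%). Of the 1266, the separate fit called 267 at 12 h and 3 at 24 h, and 996 (78.7%) were called by neither fit. Their changes were small, with a median of 0.25 for those that rose and -0.36 for those that fell on the log2 scale. All 3638 called genes had the same sign at 12 h and 24 h, which the choice of genes by the pooled value favours, against 10067 (71%) of all genes tested. All Yoda1 libraries lay beyond all controls of their own time, on the same side at both times, for 2017 called genes (55.4%), against 2093 (14.8%) of all genes, 7.53% higher and 7.24% lower. For 1472 called genes (40.5%) the 6 Yoda1 and 6 control libraries did not overlap at all, 758 higher and 714 lower, against 5.43% higher and 5.1% lower over all genes tested.

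**Figure D2:**
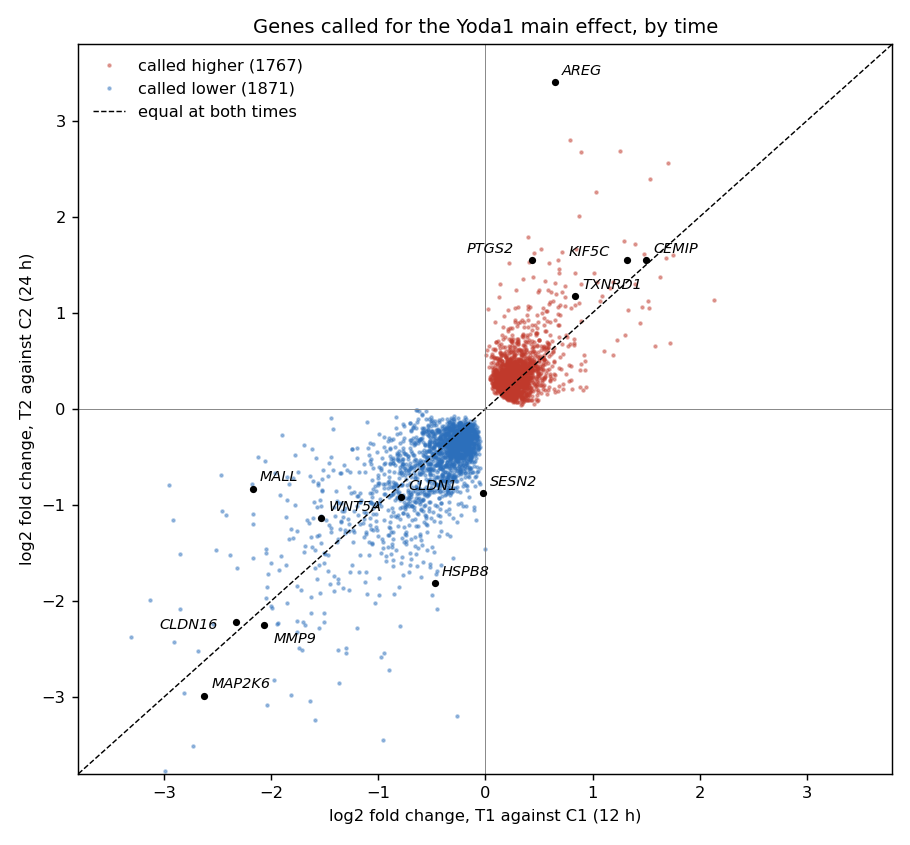
Log2 fold change at 12 h (x axis, T1 against C1) and 24 h (y axis, T2 against C2) for the genes called for the Yoda1 main effect, 1767 higher in red and 1871 lower in blue, with the dashed line where both are equal and 8 genes beyond the axes not drawn. AREG, PTGS2, HSPB8 and SESN2 lie on the side of a larger change at 24 h, MALL on the side of a larger change at 12 h, and CLDN16 and CEMIP close to the line.

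Among called genes with a symbol, at least 5 CPM and no overlap at either time, those with the largest rise were a mixed set of secreted, cytoskeletal and signalling genes. For each gene below, the 3 levels given are the lowest, the median and the highest of 6 libraries, and the log2 fold change is given with its standard error (SE). CEMIP (ENSCAFG00845004875), which encodes a protein that degrades hyaluronan, was at 37.8, 81.1 and 116 CPM in control and 196, 218 and 305 CPM in Yoda1 libraries. It rose (log2 fold change 1.52 ± 0.24 SE, edgeR adjusted p = 0.0014), with no overlap of Yoda1 and control libraries and almost the same change at 12 h (1.5) and 24 h (1.55). KIF5C (ENSCAFG00845007529), the heavy chain of a kinesin best known from neurons, was at 8.44, 10.3 and 12.9 CPM in control and 24.2, 28 and 32.4 CPM in Yoda1 libraries. It rose (log2 fold change 1.44 ± 0.12 SE, edgeR adjusted p = 1.3e-05), and every Yoda1 library was above every control. FHDC1 (ENSCAFG00845008193), a formin that binds actin and microtubules, was at 8.94, 12 and 12.2 CPM in control and 22.3, 26.3 and 26.8 CPM in Yoda1 libraries and rose (log2 fold change 1.21 ± 0.10 SE, edgeR adjusted p = 7.4e-06), without overlap. PDE3A (ENSCAFG00845015831), which breaks down cyclic AMP and cyclic GMP, was at 4.38, 7.18 and 7.94 CPM in control and 12.7, 14.5 and 17.5 CPM in Yoda1 libraries and rose (log2 fold change 1.14 ± 0.14 SE, edgeR adjusted p = 0.00019), also without overlap. TXNRD1 (ENSCAFG00845006566), the cytosolic thioredoxin reductase, was at 245, 289.6 and 352 CPM in control and 452, 594 and 681 CPM in Yoda1 libraries and rose (log2 fold change 1.01 ± 0.10 SE, edgeR adjusted p = 3.5e-05), and its groups did not overlap. AREG and PTGS2, also in this set, are described with their pathways below.

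Several of the other genes with a large rise in that set encode regulators of RNA. SRPK3 is a kinase of splicing factors and rose (log2 fold change 0.96 ± 0.14 SE, edgeR adjusted p = 0.00046). MBNL2, a regulator of alternative splicing, was at 65.7, 75.1 and 96 CPM in control and 113, 147 and 168 CPM in Yoda1 libraries and rose (log2 fold change 0.91 ± 0.11 SE, edgeR adjusted p = 0.00019). ARID5A, which binds and stabilises inflammatory messenger RNAs, rose (log2 fold change 0.88 ± 0.13 SE, edgeR adjusted p = 0.00043). IFRD1, a co-regulator of transcription, was at 142, 208 and 255 CPM in control and 300.2, 394 and 479.6 CPM in Yoda1 libraries and rose (log2 fold change 0.92 ± 0.14 SE, edgeR adjusted p = 0.00082). GNMT, a glycine methyltransferase, rose (log2 fold change 0.91 ± 0.12 SE, edgeR adjusted p = 0.00019). The Yoda1 and control libraries of these 5 genes did not overlap.

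Under the same conditions, the 12 genes with the largest fall included a metalloprotease, a membrane raft protein and a WNT ligand. Some genes of lower level fell further, as given for MAP2K6 and CLDN16 below. MMP9 (ENSCAFG00845017615), the secreted gelatinase, was at 349, 658 and 1098 CPM in control and 110.5, 148 and 294 CPM in Yoda1 libraries and fell (log2 fold change -2.16 ± 0.32 SE, edgeR adjusted p = 0.0012). No Yoda1 library reached the lowest control, 349 CPM in C2 replicate 1. ANXA13 (ENSCAFG00845010107), an annexin of polarised epithelia, was at 10.5, 18.1 and 48.6 CPM in control and 5.1, 5.95 and 6.48 CPM in Yoda1 libraries (log2 fold change -1.88 ± 0.31 SE, edgeR adjusted p = 0.0015). Its highest level, in C2 replicate 1, stood apart from the other controls, and without that library the log2 fold change was -1.5. TRPM3 (ENSCAFG00845000414), a cation channel of the TRP family, was at 12.4, 14.5 and 24.7 CPM in control and 4.3, 5.72 and 7.13 CPM in Yoda1 libraries (log2 fold change -1.44 ± 0.18 SE, edgeR adjusted p = 0.00019). TCN2, the carrier of vitamin B12 in plasma, was at 96.9, 149 and 292 CPM in control and 52.2, 65.2 and 83.8 CPM in Yoda1 libraries (log2 fold change -1.35 ± 0.24 SE, edgeR adjusted p = 0.0029). PIGR, the receptor that carries antibodies across epithelia, was at 3.22, 5.13 and 6.67 CPM in control and 1.57, 2 and 2.48 CPM in Yoda1 libraries (log2 fold change -1.36 ± 0.18 SE, edgeR adjusted p = 0.00022). These 5 genes, chosen for no overlap within a time, had none across the times either.

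Further genes, again only from those without overlap at either time, were taken for a small p or for an even change at both times. TSPAN15, a tetraspanin partner of the protease ADAM10, was among the lower genes with the smallest p, at 105, 131 and 143 CPM in control and 52.9, 62.1 and 64.6 CPM in Yoda1 libraries (log2 fold change -1.07 ± 0.08 SE, edgeR adjusted p = 3e-06). APLP2 (ENSCAFG00845006750), a relative of the amyloid precursor, was at 498, 543 and 599 CPM in control and 272, 288 and 320.2 CPM in Yoda1 libraries (log2 fold change -0.90 ± 0.06 SE, edgeR adjusted p = 2.3e-06). Among higher genes with the smallest p, the transcription factor ETS2 was at 51.4, 54.8 and 63 CPM in control and 80.2, 87.1 and 101 CPM in Yoda1 libraries (log2 fold change 0.67 ± 0.05 SE, edgeR adjusted p = 8.6e-06). CASC3, a part of the exon junction complex, was at 104, 111 and 124 CPM in control and 155, 157 and 159 CPM in Yoda1 libraries (log2 fold change 0.48 ± 0.05 SE, edgeR adjusted p = 3.2e-05). All 4, chosen for no overlap within a time, had none across the times either. The genes of at least 1.5-fold whose changes differed least between the times were ATP2A3, CX3CL1, YPEL3, ORC1 and ARRDC2. YPEL3, a small zinc-binding protein, had log2 fold changes of -0.83 at 12 h and -0.84 at 24 h, and CX3CL1, a membrane-bound chemokine, of -0.79 and -0.79. ARRDC2, an arrestin-like adaptor, had -0.88 and -0.90.

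**Figure D3:**
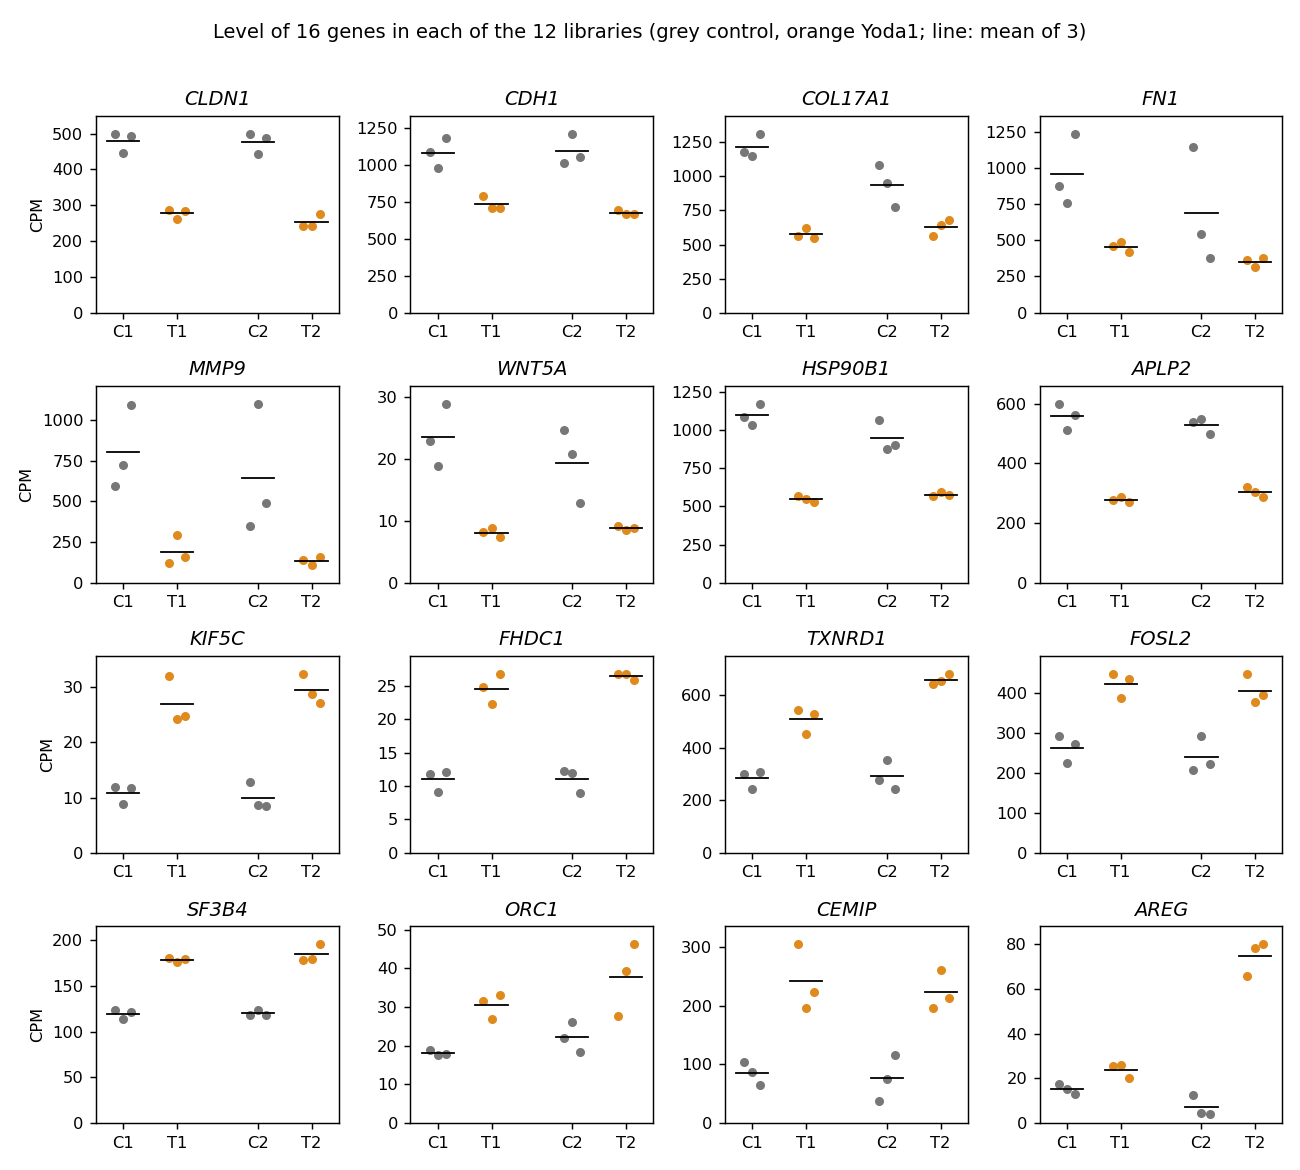
Level in CPM (y axis, from 0) of 16 genes in each of the 12 libraries, control in grey (C1 at 12 h, C2 at 24 h) and Yoda1 in orange (T1 at 12 h, T2 at 24 h), with a line at the mean of each group of 3. Yoda1 libraries lie below all controls for CLDN1, CDH1, COL17A1, MMP9, WNT5A, HSP90B1 and APLP2 and above all controls for KIF5C, FHDC1, TXNRD1, FOSL2, SF3B4, ORC1, CEMIP and AREG, while FN1 levels overlap.

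Genes of cell contacts fell more often than they rose at the pooled level. Over all genes tested, 12.5% were called higher and 13.2% lower, the shares to set beside each list count below. In the adherens junction list, 5 of 12 genes tested fell and 1 rose, with a median log2 fold change of -0.15 against -0.004 over all genes. CDH1 (ENSCAFG00845010704), the gene of E-cadherin, was at 979.8, 1068 and 1208 CPM in control and 664, 699 and 788 CPM in Yoda1 libraries. It fell (log2 fold change -0.63 ± 0.07 SE, edgeR adjusted p = 5e-05), and all 6 Yoda1 libraries lay below all 6 controls. NECTIN4, an adhesion receptor that pairs with other nectins, was at 58.7, 71.3 and 88.7 CPM in control and 32.5, 44.4 and 51.6 CPM in Yoda1 libraries (log2 fold change -0.73 ± 0.11 SE, edgeR adjusted p = 0.00048). The receptor phosphatase PTPRM, which binds itself between cells, was at 142, 157 and 186 CPM in control and 99.3, 119 and 122 CPM in Yoda1 libraries (log2 fold change -0.49 ± 0.07 SE, edgeR adjusted p = 0.00054). The catenin CTNNB1 and NECTIN1 also fell. ARVCF rose, and none was called higher without any 1 of 9 libraries (all but C1 replicate 2, C2 replicate 2 and T1 replicate 1). All 3 epithelial marker genes that fell, CDH1, KRT18 and GRHL2, are in these contacts or the identity list below, so the epithelial marker sum, 2310 to 2610 CPM in control and 1530 to 2000 CPM in Yoda1 libraries, stands beside both lists. CDH1 and KRT18, each at a mean of 1090 CPM in control libraries, make up most of that sum, while ESRP1 averaged 76.1 CPM in control and 76.5 CPM in Yoda1 libraries and CLDN7, which rose, 176 and 206 CPM. Its part in these results was not tested, and in bulk RNA fewer cells of a type and less RNA per cell cannot be told apart.

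In the tight junction list, 7 of 18 genes fell and 2 rose (median -0.22). CLDN1 (ENSCAFG00845024289), a claudin of the sealing strands, was at 443, 491 and 499 CPM in control and 241, 269 and 286 CPM in Yoda1 libraries and fell (log2 fold change -0.85 ± 0.06 SE, edgeR adjusted p = 2.8e-06). It had the smallest standard error in relation to its change among the junction genes given here. CLDN16, which forms a pore for magnesium and calcium in the thick ascending limb, was at 2.52, 3.19 and 4.64 CPM in control and 0.42, 0.71 and 0.882 CPM in Yoda1 libraries (log2 fold change -2.28 ± 0.20 SE, edgeR adjusted p = 1.4e-05). TJP3, a scaffold beneath the strands, was at 34.2, 41.8 and 48.9 CPM in control and 17.4, 18.5 and 27.2 CPM in Yoda1 libraries (log2 fold change -1.03 ± 0.12 SE, edgeR adjusted p = 0.00017). All 3 were free of overlap, and CLDN3, CGN and CGNL1 were among the other members that fell, while CLDN7 and CLDN12 rose. The 2 higher were 1 without C1 replicate 1 or 3, C2 replicate 3, T1 replicate 2 or 3, or T2 replicate 2 or 3. Desmosome and hemidesmosome genes were few: 3 of 8 fell and 1 rose (median -0.24). COL17A1 (ENSCAFG00845028642), a collagen that anchors basal cells to their matrix, was at 775, 1118 and 1311 CPM in control and 551, 592 and 678 CPM in Yoda1 libraries (log2 fold change -0.83 ± 0.10 SE, edgeR adjusted p = 0.00019). PLEC, which links keratin to hemidesmosomes, was at 2736, 3753 and 3958 CPM in control and 3994, 4336 and 5209.6 CPM in Yoda1 libraries and rose (log2 fold change 0.35 ± 0.09 SE, edgeR adjusted p = 0.01).

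Receptors for the matrix also fell more often than they rose. In the integrin and focal adhesion list, 9 of 20 genes fell and 1 rose, BCAR1 (median -0.26). ITGB1 (ENSCAFG00845002947), the beta-1 chain shared by many integrins, was at 697, 804 and 908 CPM in control and 542, 548 and 621 CPM in Yoda1 libraries (log2 fold change -0.52 ± 0.07 SE, edgeR adjusted p = 0.00019), without overlap. ITGA2, the collagen receptor chain, was at 333, 454 and 632 CPM in control and 228, 312 and 372 CPM in Yoda1 libraries (log2 fold change -0.61 ± 0.15 SE, edgeR adjusted p = 0.01), and its groups overlapped. ITGA6, the laminin receptor chain that also sits in hemidesmosomes, was at 181, 288 and 424 CPM in control and 166, 182 and 203 CPM in Yoda1 libraries (log2 fold change -0.69 ± 0.16 SE, edgeR adjusted p = 0.01), with overlap across times but not within them. Talins TLN1 and TLN2, the kinase SRC, PARVA, ITGB3 and ITGB5 fell too. CAV1, the coat protein of caveolae, was at 2231, 3311 and 3620.4 CPM in control and 2108, 2187 and 2357 CPM in Yoda1 libraries (log2 fold change -0.48 ± 0.10 SE, edgeR adjusted p = 0.0038). It is also in the list of polarity and membrane raft genes, of which 5 of 16 fell and none rose (median -0.05, and 0.01 with log2(TPM + 1)): MALL, MAL, CAV1, CAV2 and RAB25. Without T1 replicate 3 that count was 3. MAL, a raft protein of apical transport, was at 659, 825 and 946 CPM in control and 448, 502 and 665 CPM in Yoda1 libraries (log2 fold change -0.64 ± 0.08 SE, edgeR adjusted p = 0.00017).

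Epithelial and renal tubule identity genes fell in 9 of 18 cases and rose in 1, PKD1 (median -0.32). At 12 h 1 member was called lower and at 24 h 9 were (list medians -0.16 and -0.40). Over all genes tested the same model called 6.99% at 12 h and 18.6% at 24 h in either direction, an order that separate fits reversed. ATP1B1, the beta chain of the sodium pump, was at 322, 364 and 540.3 CPM in control and 239.9, 246 and 271 CPM in Yoda1 libraries (log2 fold change -0.66 ± 0.11 SE, edgeR adjusted p = 0.00078). TFAP2A, a transcription factor of ectoderm and distal nephron, was at 6.07, 7.28 and 8.56 CPM in control and 2.64, 3.86 and 5.69 CPM in Yoda1 libraries (log2 fold change -0.87 ± 0.14 SE, edgeR adjusted p = 0.00092). OVOL1, a transcription factor that keeps cells epithelial, was at 7.24, 8.88 and 10.5 CPM in control and 4.65, 5.68 and 6.63 CPM in Yoda1 libraries (log2 fold change -0.61 ± 0.12 SE, edgeR adjusted p = 0.0022). KRT18, a keratin of simple epithelia, was at 931, 1077 and 1319 CPM in control and 559, 707 and 953 CPM in Yoda1 libraries (log2 fold change -0.58 ± 0.10 SE, edgeR adjusted p = 0.0014). The first 3 had no overlap and KRT18 did. SCNN1B and GRHL2 were among the other members that fell. In the list for epithelial-mesenchymal transition, 5 of 12 genes fell and 1 rose (median -0.12). The members that fell were of both kinds, the mesenchymal ACTA2 and FN1 and the epithelial OVOL1, GRHL2 and ESRP2. VIM, the mesenchymal intermediate filament protein, was at 1142, 1582 and 2067 CPM in control and 1844, 2308 and 2713 CPM in Yoda1 libraries and rose (log2 fold change 0.58 ± 0.10 SE, edgeR adjusted p = 0.0013). VIM levels overlapped across the times and not within them. With KRT80 it made 2 of 4 intermediate filament genes that rose, and KRT18 was the one that fell.

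**Figure D4:**
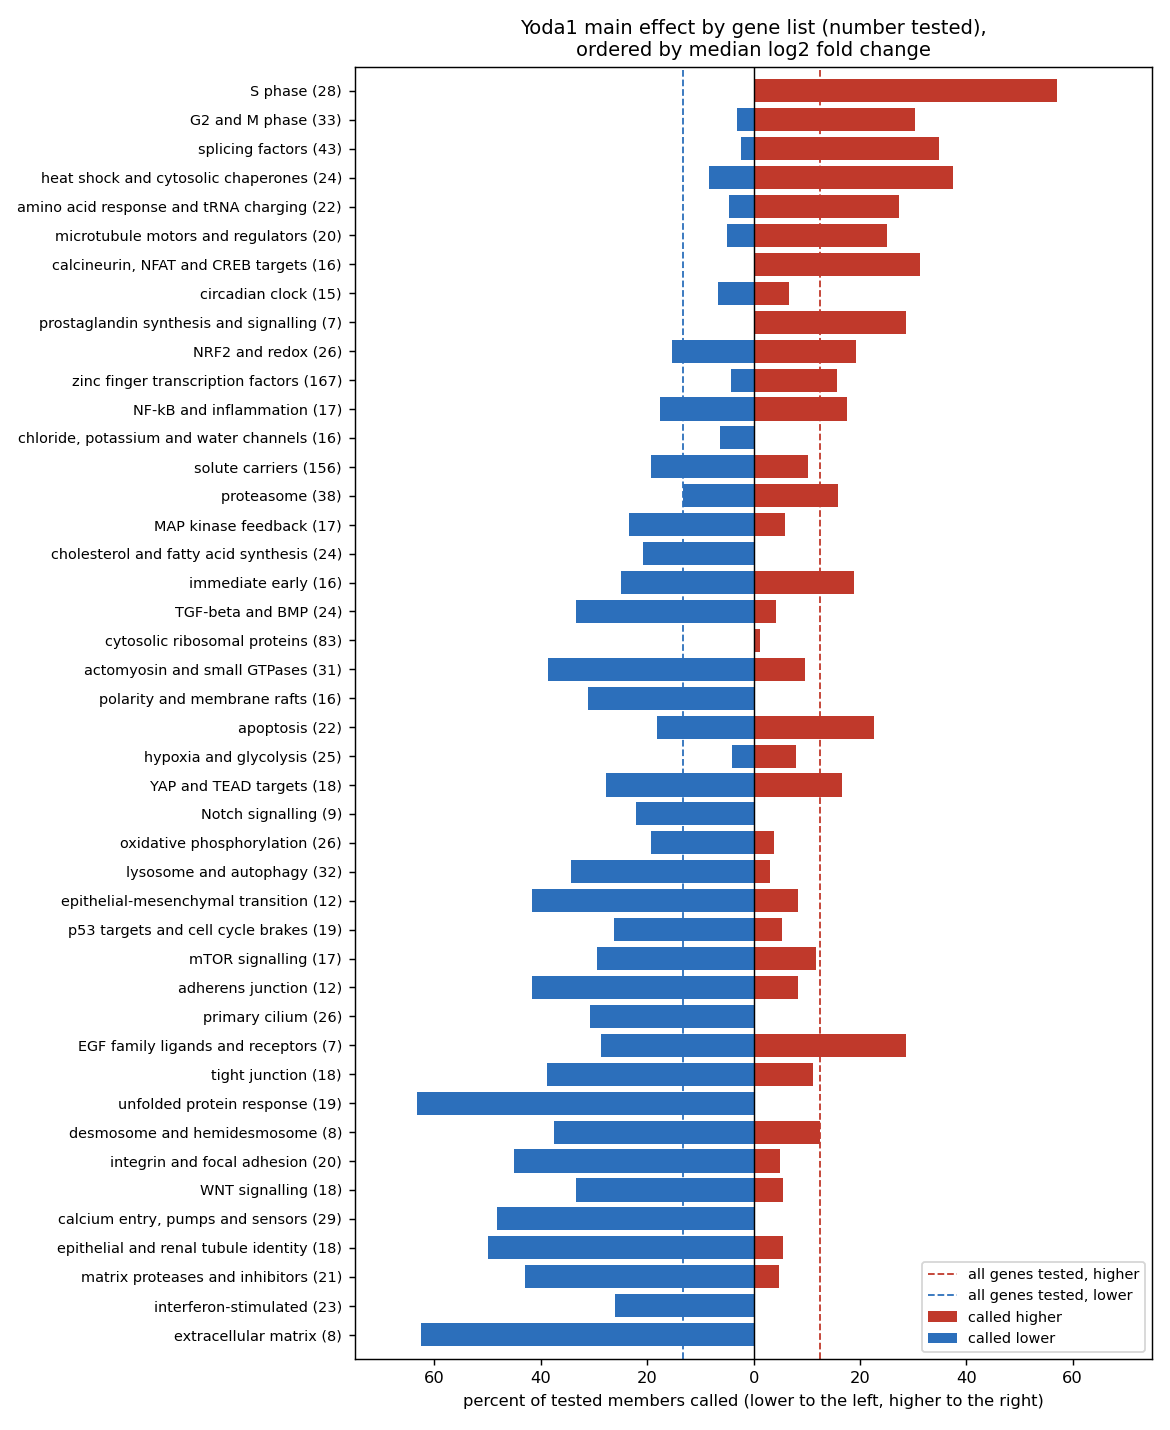
Percent of tested members of each gene list with at least 5 tested genes (number tested in parentheses) called lower (blue, to the left) or higher (red, to the right) for the Yoda1 main effect, ordered by the median log2 fold change, with dashed lines at 12.5% and 13.2% for all genes tested. The S phase list has the largest share called higher (57.1%) and the unfolded protein response and extracellular matrix lists the largest shares called lower (63.2% and 62.5%).

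Matrix genes were few in these cells, and 5 of 8 tested fell while none rose (median -0.77): FN1, AGRN, VCAN, EFEMP1 and COL1A1. FN1 (ENSCAFG00845021985), the gene of fibronectin, was at 377, 815 and 1233 CPM in control and 314, 401 and 489 CPM in Yoda1 libraries (log2 fold change -1.02 ± 0.23 SE, edgeR adjusted p = 0.0092). The lowest control, C2 replicate 3, lay inside the Yoda1 range. The list count was 2 or 3 without C1 replicate 1 or 3, C2 replicate 1, T1 replicate 1, 2 or 3, or T2 replicate 1 or 2. Among matrix proteases and their inhibitors, 9 of 21 fell and 1, CEMIP, rose (median -0.32). PLAU, the urokinase that activates plasminogen, was at 144, 215 and 371 CPM in control and 82.1, 104 and 123 CPM in Yoda1 libraries (log2 fold change -1.23 ± 0.25 SE, edgeR adjusted p = 0.0051), without overlap although neither time alone called it. The membrane proteases ADAM9, ADAM10 and MMP14 and the cathepsins CTSL and CTSB also fell. CTSL lost its call in 7 of the 12 fits that left out a library (C1 replicate 3, C2 replicate 3, T1 replicate 1 or 3, T2 replicate 1, 2 or 3), with a highest adjusted p of 0.075 in edgeR.

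Ligands of developmental pathways fell in part. Of 18 WNT genes, 6 fell and 1, DVL2, rose (median -0.28), and 3 fell without T1 replicate 1. WNT5A (ENSCAFG00845026417), a ligand of the branch that does not act through beta-catenin, was at 12.9, 21.9 and 28.9 CPM in control and 7.36, 8.63 and 9.25 CPM in Yoda1 libraries (log2 fold change -1.33 ± 0.15 SE, edgeR adjusted p = 0.00011), without overlap. WNT4, a ligand of tubule formation, was at 1.03, 1.83 and 3.99 CPM in control and 0.672, 0.955 and 1.22 CPM in Yoda1 libraries (log2 fold change -1.09 ± 0.29 SE, edgeR adjusted p = 0.016). WNT5B, WNT10A, WNT7B and the feedback gene AXIN2 fell as well. Of 24 TGF-beta and BMP genes, 8 fell and SMAD1 rose. The list's median was -0.03, and 0.004 with scaling by library size and 0.01 with log2(TPM + 1), so its sign changed with the scaling. The genes that fell were ligands (TGFB2, BMP2, BMP4, BMP7), the receptor TGFBR2 and the inhibitors BAMBI, SMAD6 and SMAD7. BAMBI, a decoy receptor, was at 15.8, 20.3 and 26.7 CPM in control and 9.48, 12.3 and 17.8 CPM in Yoda1 libraries (log2 fold change -0.70 ± 0.16 SE, edgeR adjusted p = 0.008). The count of 8 was 4 or 5 without C1 replicate 3, T1 replicate 1 or 3, or T2 replicate 1 or 2. Of 9 Notch genes, NOTCH1 and its target NRARP fell and none rose (median -0.10). None was called without C1 replicate 3, C2 replicate 1 or T1 replicate 3, and 1 without C2 replicate 3 or T2 replicate 1, 2 or 3.

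Many genes that handle calcium fell. In the list of calcium entry, pumps and sensors, 14 of 29 fell and none rose (median -0.28). ATP2A3, a pump that returns calcium to the endoplasmic reticulum, was at 14.7, 18.9 and 24.9 CPM in control and 10, 11.4 and 12.9 CPM in Yoda1 libraries (log2 fold change -0.78 ± 0.11 SE, edgeR adjusted p = 0.00034), without overlap. The entry channels TRPV4, TRPM4 and ORAI2 and the release channel ITPR3 fell beside TRPM3, as did CALM2, the kinase CAMK2D, the annexins ANXA1, ANXA2, ANXA5 and ANXA13, and 2 identifiers that share the symbol S100A10. With each library left out, 12 to 16 members fell and none rose. Targets of calcineurin, NFAT and CREB moved the other way: 5 of 16 rose and none fell (median 0.10). RCAN1 (ENSCAFG00845025941), a target and inhibitor of calcineurin, was at 179, 202 and 219.6 CPM in control and 236, 284 and 316 CPM in Yoda1 libraries (log2 fold change 0.46 ± 0.05 SE, edgeR adjusted p = 5.1e-05), and every Yoda1 library lay above every control. The others were the nuclear receptor NR4A2, the phosphodiesterases PDE4D and PDE10A, and PPP3CB, a catalytic chain of calcineurin itself. That count was 3 without C1 replicate 2 or 3, T1 replicate 1, or T2 replicate 1 or 3.

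Immediate early genes split. Of 16 tested, FOSL2, ATF3 and MCL1 rose and EGR1, EGR2, JUNB and FOS fell (median -0.03, and 0.006 with scaling by library size). FOSL2 (ENSCAFG00845010313), a late member of the FOS family, was at 206, 248 and 292 CPM in control and 376, 413 and 446 CPM in Yoda1 libraries (log2 fold change 0.72 ± 0.09 SE, edgeR adjusted p = 0.00019). EGR1 (ENSCAFG00845021860), a zinc finger factor induced by growth factor signals, was at 71, 80.4 and 122 CPM in control and 33.3, 42.1 and 48.8 CPM in Yoda1 libraries (log2 fold change -1.09 ± 0.10 SE, edgeR adjusted p = 1.4e-05). Neither gene had overlapping groups. In the MAP kinase feedback list, 4 of 17 fell and 1 rose, and the median of -0.01 became 0.03 with scaling by library size. MAP2K6, an activator of p38, was at 0.78, 1.01 and 1.57 CPM in control and 0.0977, 0.177 and 0.211 CPM in Yoda1 libraries (log2 fold change -2.80 ± 0.28 SE, edgeR adjusted p = 3.9e-05), among the lowest levels of the genes described here. The phosphatase gene DUSP16 was at 8.16, 10.2 and 12 CPM in control and 11.6, 15.4 and 15.9 CPM in Yoda1 libraries (log2 fold change 0.56 ± 0.10 SE, edgeR adjusted p = 0.0019). Of 18 YAP and TEAD targets, 5 fell and 3 rose (median -0.09). Tissue factor, F3, was at 172, 254 and 456 CPM in control and 146, 164 and 208 CPM in Yoda1 libraries (log2 fold change -0.82 ± 0.22 SE, edgeR adjusted p = 0.02), and its groups overlapped. MYOF, a membrane repair protein, was at 208, 233 and 342 CPM in control and 129.9, 139 and 166 CPM in Yoda1 libraries (log2 fold change -0.80 ± 0.11 SE, edgeR adjusted p = 0.00042), without overlap.

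Ligands of the EGF receptor diverged. Of 7 genes of that family, AREG and ERRFI1 rose and EPGN and ERBB2 fell (median -0.21). The 2 higher were 1 without C2 replicate 1 or T2 replicate 1, 2 or 3, and the 2 lower were 4 without C2 replicate 2. AREG (ENSCAFG00845006713), the gene of amphiregulin, was at 3.95, 12.9 and 17.2 CPM in control and 20.3, 45.8 and 80 CPM in Yoda1 libraries (log2 fold change 2.02 ± 0.55 SE, edgeR adjusted p = 0.023). All Yoda1 libraries were above all controls. Its log2 fold change was 0.65 at 12 h and 3.41 at 24 h, a difference of 2.76 with an unadjusted 95% interval of 1.63 to 3.88 that edgeR's test of the difference did not call (adjusted p = 0.07). Without C2 replicate 1 its adjusted p was 0.0571 at a log2 fold change of 2.01, over a range of 1.69 to 2.29 with each library left out. EPGN, the ligand epigen, was at 0.384, 0.652 and 0.973 CPM in control and 0.141, 0.288 and 0.326 CPM in Yoda1 libraries (log2 fold change -1.21 ± 0.29 SE, edgeR adjusted p = 0.008). ERBB2, the partner receptor, was at 203, 248 and 279.5 CPM in control and 179.8, 190.0 and 203 CPM in Yoda1 libraries (log2 fold change -0.37 ± 0.07 SE, edgeR adjusted p = 0.0023). Of 7 prostaglandin genes, 2 rose and none fell (median 0.09). PTGS2 (ENSCAFG00845005378), the inducible cyclooxygenase, was at 110.4, 275 and 359 CPM in control and 391, 484 and 646 CPM in Yoda1 libraries (log2 fold change 0.99 ± 0.27 SE, edgeR adjusted p = 0.021). Its log2 fold change was 0.43 at 12 h and 1.55 at 24 h, a difference that edgeR's test did not call (adjusted p = 0.37). Without C2 replicate 3 the adjusted p of its main effect was 0.0522 at a log2 fold change of 0.90. PTGER2, a receptor for prostaglandin E2, was at 125, 141 and 164 CPM in control and 161, 171 and 179 CPM in Yoda1 libraries (log2 fold change 0.26 ± 0.06 SE, edgeR adjusted p = 0.01).

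Cytoskeletal lists differed from one another. In the list of actomyosin and small GTPases, 12 of 31 fell and 3 rose. Of the 15 called, 10 were called at neither time alone. The median of -0.04 was -0.01 with scaling by library size and 0.02 with log2(TPM + 1). ARHGDIB, an inhibitor that holds small GTPases in the cytosol, was at 6.18, 9.19 and 12.1 CPM in control and 2.41, 3.75 and 4.33 CPM in Yoda1 libraries (log2 fold change -1.35 ± 0.13 SE, edgeR adjusted p = 2.8e-05), without overlap. Actin itself (ACTB), cofilin (CFL1), the filamin FLNA and the myosin chains MYL6, MYL9, MYL12B and MYH14 were among those that fell, and RND3, ARHGEF2 and FHDC1 rose. The count of 12 was 6 or 7 without T1 replicate 3 or T2 replicate 1 or 2, and the count of 3 was 5 without C2 replicate 2. Of 20 microtubule genes, 5 rose and 1, DYNC1H1, fell (median 0.10). TUBG1, the gamma-tubulin of centrosomes, was at 89.7, 96.6 and 98.9 CPM in control and 116, 128 and 143 CPM in Yoda1 libraries (log2 fold change 0.44 ± 0.05 SE, edgeR adjusted p = 0.00017), and TUBB4B, a beta-tubulin, at 546, 621 and 638 CPM in control and 722, 798 and 919.5 CPM in Yoda1 libraries (log2 fold change 0.41 ± 0.06 SE, edgeR adjusted p = 0.00059). Both were free of overlap. Genes of the primary cilium fell in 8 of 26 cases and rose in none (median -0.18). Parts of intraflagellar transport and its dynein made up 5 of the 8, among them IFT172 at 11.9, 16.5 and 31.4 CPM in control and 8, 10.1 and 12 CPM in Yoda1 libraries (log2 fold change -0.88 ± 0.21 SE, edgeR adjusted p = 0.0091) and DYNC2H1 at 4.25, 4.86 and 5.71 CPM in control and 2.32, 3.39 and 4.03 CPM in Yoda1 libraries (log2 fold change -0.60 ± 0.14 SE, edgeR adjusted p = 0.0063). GLI1, a target of hedgehog signals that pass through cilia, was at 5.05, 7.42 and 8.59 CPM in control and 2.9, 4.74 and 5.23 CPM in Yoda1 libraries (log2 fold change -0.61 ± 0.13 SE, edgeR adjusted p = 0.0051). Of the cilium list, 1 member was called lower at 12 h and 8 were at 24 h (list medians -0.13 and -0.28). Of all genes tested, 6.99% were called at 12 h and 18.6% at 24 h, in either direction.

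Folding genes of the endoplasmic reticulum and of the cytosol differed in direction. In the unfolded protein response list, which holds mainly genes of the endoplasmic reticulum, 12 of 19 fell and none rose (median -0.24). HSP90B1 (ENSCAFG00845010421), the reticulum's HSP90, was at 879, 1053 and 1171 CPM in control and 529, 569 and 593 CPM in Yoda1 libraries (log2 fold change -0.86 ± 0.07 SE, edgeR adjusted p = 8.6e-06). PDIA3, a disulfide isomerase for glycoproteins, was at 794, 844 and 945 CPM in control and 528, 549 and 575 CPM in Yoda1 libraries (log2 fold change -0.64 ± 0.05 SE, edgeR adjusted p = 8.6e-06). HERPUD1, part of the degradation machinery of the reticulum, was at 42.8, 52.5 and 54.8 CPM in control and 27.6, 32.9 and 38.4 CPM in Yoda1 libraries (log2 fold change -0.63 ± 0.08 SE, edgeR adjusted p = 0.00024). All 3 were free of overlap. CANX, HYOU1, PDIA6, DNAJB11, DNAJC3, EDEM1, SEL1L, ERO1B and SESN2 fell too, and 9 to 12 members fell with each library left out. In the heat shock and cytosolic chaperone list, 9 of 24 rose and 2 fell (median 0.12). HSPA8, DNAJB1, STIP1, BAG2, CHORDC1 and the chaperonin chains TCP1, CCT2 and CCT3 rose. CRYAB, a small heat shock protein, was at 109.7, 138 and 153 CPM in control and 149.9, 194 and 219 CPM in Yoda1 libraries (log2 fold change 0.47 ± 0.09 SE, edgeR adjusted p = 0.0025). Its relatives HSPB1, at 142, 152 and 191 CPM in control and 80.8, 91.6 and 111 CPM in Yoda1 libraries (log2 fold change -0.77 ± 0.09 SE, edgeR adjusted p = 0.00011), and HSPB8, at 22.8, 30.1 and 57.4 CPM in control and 11.2, 15 and 21.6 CPM in Yoda1 libraries (log2 fold change -1.14 ± 0.25 SE, edgeR adjusted p = 0.0078), were the members that fell. HSPB8 had -0.47 at 12 h and -1.82 at 24 h, a difference that edgeR's test did not call (adjusted p = 0.082).

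Lysosomal and autophagy genes fell in 11 of 32 cases and rose in 1, and 7 fell without T2 replicate 3 (median -0.11). GLB1, the lysosomal beta-galactosidase, was at 66.5, 74.5 and 85.1 CPM in control and 49.2, 52.3 and 59.5 CPM in Yoda1 libraries (log2 fold change -0.48 ± 0.07 SE, edgeR adjusted p = 0.00031), without overlap. Membrane proteins LAMP1 and LAMP2, the cholesterol exporters NPC1 and NPC2 and the enzymes CTSA, CTSB, CTSD and CTSL were among those that fell, while MITF rose. MITF, a transcription factor of the family that drives lysosomal genes, was at 18.9, 23.3 and 29.3 CPM in control and 24.3, 30.3 and 39.8 CPM in Yoda1 libraries (log2 fold change 0.41 ± 0.11 SE, edgeR adjusted p = 0.017). In the NRF2 and redox list, 5 of 26 rose and 4 fell (median 0.08). These are 19.2% and 15.4%, against 12.5% and 13.2% of all genes tested. Among the genes that rose were TXNRD1 and PRDX1 of the thioredoxin system, GCLC and OSGIN1. GCLC, which starts glutathione synthesis, was at 127, 149 and 178 CPM in control and 181, 209.9 and 221 CPM in Yoda1 libraries (log2 fold change 0.47 ± 0.08 SE, edgeR adjusted p = 0.0012). CAT, SOD1, GPX1 and PRDX3 fell. The count of 5 was 3 in 8 of the 12 fits that left out a library (C1 replicate 1, 2 or 3, C2 replicate 1, T1 replicate 2 or 3, T2 replicate 1 or 3).

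Amino acid response and tRNA charging genes rose in 6 of 22 cases and fell in 1 (median 0.10), namely the transporters SLC3A2 and SLC7A1, MTHFD2 and the synthetases SARS1, MARS1 and TARS1. In the mTOR list 5 of 17 fell (DEPTOR, CASTOR1, SESN2, SESN3 and AKT1S1, known as brakes on the kinase), and RPTOR and FLCN rose (median -0.14). DEPTOR, an inhibitor bound to the kinase, was at 5.54, 7.51 and 14.7 CPM in control and 2.62, 4.2 and 5.95 CPM in Yoda1 libraries (log2 fold change -1.08 ± 0.29 SE, edgeR adjusted p = 0.017). Its log2 fold change was -0.46 at 12 h and -1.69 at 24 h, a difference that edgeR's test did not call (adjusted p = 0.35). The 2 higher were 1 without C1 replicate 1, 2 or 3, C2 replicate 3, T1 replicate 1 or 3, or T2 replicate 3. The mTOR count of 5 was 2 or 3 without C2 replicate 3, T1 replicate 3, or T2 replicate 1, 2 or 3. At 12 h no mTOR gene was called lower and at 24 h 5 were (list medians -0.02 and -0.17), while 6.99% and 18.6% of all genes tested were called at those times in either direction. Of 19 p53 targets and cell cycle brakes 5 fell and XPC rose (median -0.14), with 1 to 3 lower in 9 fits that left out a library (C1 replicate 1 or 2, C2 replicate 1 or 3, T1 replicate 1 or 3, T2 replicate 1, 2 or 3). Apoptosis genes went both ways, with 5 of 22 higher and 4 lower (median -0.05, and 0.02 with log2(TPM + 1)). These are 22.7% and 18.2%, against 12.5% and 13.2% of all genes tested. The ligand TNFSF10 was at 28.5, 41.5 and 59.9 CPM in control and 13, 17.7 and 22.4 CPM in Yoda1 libraries (log2 fold change -1.25 ± 0.21 SE, edgeR adjusted p = 0.0018), and BMF, a BH3-only activator of cell death, at 6.47, 8.34 and 9.04 CPM in control and 2.43, 4.1 and 5.72 CPM in Yoda1 libraries (log2 fold change -1.10 ± 0.17 SE, edgeR adjusted p = 0.0005). Both lay wholly below the controls. The 5 higher apoptosis genes were CASP8, CASP2, CFLAR, BIRC2 and MCL1, and 2 or 3 were higher without C1 replicate 2, C2 replicate 3, T1 replicate 1 or 3, or T2 replicate 1 or 3.

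Metabolic and housekeeping lists were mixed. Of 25 hypoxia and glycolysis genes, NDRG1 and STC2 rose and VEGFA fell (median -0.08). The count of lower genes was 7 without C2 replicate 2 and 2 without C2 replicate 1 or 3, and 1 gene was higher in 10 of the 12 fits that left out a library (all but C2 replicate 1 or 2). VEGFA, the vascular growth factor, was at 127, 158 and 215 CPM in control and 79.4, 104 and 125 CPM in Yoda1 libraries (log2 fold change -0.72 ± 0.14 SE, edgeR adjusted p = 0.0034), and NDRG1, a hypoxia and stress marker, at 341, 391 and 478 CPM in control and 445, 535 and 764 CPM in Yoda1 libraries (log2 fold change 0.48 ± 0.10 SE, edgeR adjusted p = 0.0048). Of 24 cholesterol and fatty acid genes 5 fell (20.8%, against 13.2% of all genes tested) and none rose. The list's median of -0.02 became 0.02 with scaling by library size. ABCA1, the cholesterol exporter, was at 33.6, 47.5 and 66.4 CPM in control and 17.7, 21.2 and 27 CPM in Yoda1 libraries (log2 fold change -1.16 ± 0.15 SE, edgeR adjusted p = 0.00025), while 2 or 3 members fell without C1 replicate 1 or 2, C2 replicate 1, T1 replicate 1 or 3, or T2 replicate 1, 2 or 3. Of 26 oxidative phosphorylation genes 5 fell (19.2%, against 13.2% of all genes tested) and CYCS rose (median -0.10). That count of 5 ran from 1 without C1 replicate 2 to 8 without C2 replicate 2, and was 2 or 3 without C1 replicate 1, C2 replicate 3, T1 replicate 1 or 3, or T2 replicate 1, 2 or 3. Of 83 cytosolic ribosomal protein genes, 1 rose and none fell (median -0.04, and 0.02 with log2(TPM + 1)). Of 38 proteasome genes 6 rose (15.8%) and 5 fell (13.2%), shares near those over all genes tested (12.5% and 13.2%). Their median was -0.004, and 0.03 with scaling by library size. The 5 were 3 without C1 replicate 2, T1 replicate 1, or T2 replicate 1 or 3. Among the members that fell were PSMB8, PSMB9, PSME1 and PSME2, chains of the interferon-inducible form, with PSMB8 at 68.9, 74.7 and 80 CPM in control and 52.6, 56.7 and 67.4 CPM in Yoda1 libraries (log2 fold change -0.35 ± 0.06 SE, edgeR adjusted p = 0.0019) and PSME2 at 54.7, 64.1 and 74.2 CPM in control and 46.9, 49.9 and 52.5 CPM in Yoda1 libraries (log2 fold change -0.37 ± 0.07 SE, edgeR adjusted p = 0.0019).

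For interferon-stimulated genes the pooled median lay between unlike medians at the 2 times. Of 23 tested, 6 fell and none rose (median -0.41), yet the list's median was 0.11 at 12 h and -0.89 at 24 h. In the model with a mean per group, 12 members were called lower at 24 h and none at 12 h. Over all genes tested that model called 18.6% at 24 h and 6.99% at 12 h, in either direction. OAS2, a sensor of double-stranded RNA, was at 217, 274 and 292 CPM in control and 132, 202 and 286 CPM in Yoda1 libraries (log2 fold change -0.45 ± 0.13 SE, edgeR adjusted p = 0.022), with -0.10 at 12 h and -0.80 at 24 h. Without T2 replicate 2 its adjusted p was 0.0575 at a log2 fold change of -0.40. EdgeR's test of the difference between times did not call OAS2 (adjusted p = 0.12), IFI35 (0.22) or PSMB8 (0.45). The count of 6 was 2, 3 and 2 without T2 replicate 1, 2 and 3. NF-kB and inflammation genes had 3 higher and 3 lower of 17 (median 0.05). These shares, 17.6% each, are near those over all genes tested (12.5% and 13.2%). The 3 higher were 5 without C2 replicate 2 and 1 without C2 replicate 3, T1 replicate 2, or T2 replicate 1, 2 or 3, and the 3 lower were 1 without C1 replicate 3, T1 replicate 1 or 3, or T2 replicate 3. Of 15 circadian clock genes, BHLHE41 rose and DBP fell (median 0.09), and 3 rose and 2 fell without C2 replicate 2. The clock list's median also differed in sign between the times, at 0.235 at 12 h and -0.133 at 24 h. At 12 h 1 clock gene was called higher and none lower, and at 24 h 1 higher and 3 lower.

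Membrane transport showed mixed directions. Of 156 solute carriers, 16 rose (10.3%) and 30 fell (19.2%), against 12.5% and 13.2% of all genes tested. Their median was 0.01, and 19 were lower without T2 replicate 2. Within the called carriers, those that fell included the urate carriers SLC22A12 and SLC2A9 and the vitamin carrier SLC23A1. SLC23A1, a sodium-coupled carrier of vitamin C, was at 0.693, 1.29 and 6 CPM in control and 0.192, 0.469 and 0.775 CPM in Yoda1 libraries (log2 fold change -2.03 ± 0.38 SE, edgeR adjusted p = 0.0019). SLC35G2 was at 3.16, 4.24 and 5.2 CPM in control and 5.22, 5.6 and 6.9 CPM in Yoda1 libraries (log2 fold change 0.49 ± 0.13 SE, edgeR adjusted p = 0.016), with all Yoda1 libraries above all controls and neither time called alone. Of 16 chloride, potassium and water channels none rose and 1 fell (median 0.03), the potassium channel KCNQ1, at 21.9, 28.6 and 34.8 CPM in control and 14.7, 15.6 and 19.3 CPM in Yoda1 libraries (log2 fold change -0.81 ± 0.11 SE, edgeR adjusted p = 0.00027).

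Cell cycle and RNA processing lists held many genes that rose. In the S phase list 16 of 28 rose (57.1%) and none fell (median 0.23), and 9 rose without T2 replicate 3. Neither time alone called 7 of the 16. ORC1 (ENSCAFG00845019988), the largest chain of the origin recognition complex, was at 17.6, 18.6 and 26 CPM in control and 26.9, 32.3 and 46.2 CPM in Yoda1 libraries (log2 fold change 0.76 ± 0.12 SE, edgeR adjusted p = 0.00052), without overlap. CDC6, which loads the helicase at origins, was at 57.1, 69.2 and 89.3 CPM in control and 88.8, 98.7 and 125 CPM in Yoda1 libraries (log2 fold change 0.56 ± 0.09 SE, edgeR adjusted p = 0.00065), and CLSPN, a checkpoint mediator at forks, at 33.7, 37.4 and 49.4 CPM in control and 48.6, 54.8 and 68.8 CPM in Yoda1 libraries (log2 fold change 0.50 ± 0.09 SE, edgeR adjusted p = 0.0012). CDC45, MCM4, MCM7, GINS3, POLA2, POLE2, FEN1, RFC1, RFC3, ORC6, DTL, E2F8 and SLBP rose as well, so helicase, polymerase and clamp loader parts were all represented. In the G2 and M phase list 10 of 33 rose and 1, SPC24, fell (median 0.16), and 6 rose without T1 replicate 1 or 3 or T2 replicate 2. None fell without C1 replicate 2, C2 replicate 3, T1 replicate 1 or 3, or T2 replicate 1 or 3. CDC25A, a phosphatase that promotes entry into S phase and mitosis, was at 27.4, 33.2 and 37.3 CPM in control and 39.8, 42.9 and 53.2 CPM in Yoda1 libraries (log2 fold change 0.46 ± 0.09 SE, edgeR adjusted p = 0.0031). AURKA, a kinase of the spindle poles, was at 45.1, 46.9 and 50 CPM in control and 56.4, 59.1 and 70.9 CPM in Yoda1 libraries (log2 fold change 0.38 ± 0.06 SE, edgeR adjusted p = 0.00056), and BUB1, a spindle checkpoint kinase, at 62.6, 69.1 and 82.2 CPM in control and 78.6, 89.3 and 103 CPM in Yoda1 libraries (log2 fold change 0.37 ± 0.07 SE, edgeR adjusted p = 0.0024).

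Splicing factors rose in 15 of 43 cases and fell in 1, SRSF9 (median 0.14). SF3B4 (ENSCAFG00845012146), a part of the U2 particle that is not in that list and was taken for its small p, was at 114, 120.0 and 124 CPM in control and 176, 179 and 196 CPM in Yoda1 libraries (log2 fold change 0.60 ± 0.05 SE, edgeR adjusted p = 5.4e-06), the smallest p among genes with a symbol that rose without overlap. SRSF3, a serine and arginine rich factor, was at 175, 244 and 274 CPM in control and 309.5, 329 and 391 CPM in Yoda1 libraries (log2 fold change 0.58 ± 0.11 SE, edgeR adjusted p = 0.0023), and SF3A2, another part of the U2 particle, at 69.3, 76.9 and 91 CPM in control and 90.5, 103 and 115 CPM in Yoda1 libraries (log2 fold change 0.41 ± 0.08 SE, edgeR adjusted p = 0.0024). With each library left out, 12 to 18 members rose and 1 fell. Zinc finger transcription factors of the ZNF and ZSCAN names rose in 26 of 167 cases (15.6%) and fell in 7 (4.19%), with a median of 0.05. The rise is near the share of all genes called higher (12.5%), and the count of 7 was 3 or 4 without C2 replicate 3, T1 replicate 1 or 3, or T2 replicate 1, 2 or 3. ZNF367, a factor with a peak in dividing cells, was at 28.5, 34.9 and 42.5 CPM in control and 44.4, 54.1 and 68.5 CPM in Yoda1 libraries (log2 fold change 0.62 ± 0.08 SE, edgeR adjusted p = 0.00024). ZNF296 was at 6.69, 7.88 and 9.88 CPM in control and 9.35, 12.4 and 14.8 CPM in Yoda1 libraries (log2 fold change 0.63 ± 0.12 SE, edgeR adjusted p = 0.002), and ZNF608 was lower, at 7.87, 8.51 and 10.1 CPM in control and 4.26, 4.97 and 7.27 CPM in Yoda1 libraries (log2 fold change -0.70 ± 0.13 SE, edgeR adjusted p = 0.0016).

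Some genes called for the main effect were called at neither time in the model with a mean per group. ABL2, a tyrosine kinase that binds actin, was at 13.3, 17.4 and 24.3 CPM in control and 23, 25.8 and 28.4 CPM in Yoda1 libraries (log2 fold change 0.53 ± 0.13 SE, edgeR adjusted p = 0.0078), with adjusted p of 0.083 at 12 h and 0.075 at 24 h. GEN1, a nuclease that resolves recombination junctions, was at 27.7, 37.5 and 42.5 CPM in control and 39.9, 51.1 and 57.5 CPM in Yoda1 libraries (log2 fold change 0.47 ± 0.10 SE, edgeR adjusted p = 0.0055), with 0.073 and 0.054 in edgeR's tests of the single times. IGSF23, an immunoglobulin domain gene, was at 70.4, 121 and 194 CPM in control and 39.8, 53.1 and 83.6 CPM in Yoda1 libraries (log2 fold change -1.16 ± 0.25 SE, edgeR adjusted p = 0.0082), with 0.058 and 0.092. All 3 had overlapping groups. Their log2 fold changes at 12 h and 24 h were 0.57 and 0.50 (ABL2), 0.49 and 0.45 (GEN1) and -1.34 and -0.98 (IGSF23). Unadjusted 95% intervals of the difference between times were -0.63 to 0.50, -0.50 to 0.43 and -0.78 to 1.51 in the same order. These intervals do not show that the shifts were similar, and the choice of genes by the pooled value favours like shifts. PLAU and FN1, described above, were also called for the main effect and at neither time. In the separate fits ABL2, IGSF23 and FN1 were called at 12 h (edgeR adjusted p = 0.011, 0.031 and 0.0044) and GEN1 at 24 h (0.037), and of these 5 genes PLAU was called by neither (0.059 and 0.081).

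The size of the response at the 2 times was compared for each called gene. The 95% interval of the difference between times lay within 1.5-fold for 2219 called genes (61%) and within 2-fold for 3021 (83%). These bounds are wider than the median change of called genes (1.23-fold higher, 1.34-fold lower), so for most genes they do not show that the response was equal at both times. The estimate was larger at 24 h than at 12 h for 2368 of the 3638 (65.1%). A difference between times was called for 22 genes (0.155% of those tested), and 1445 passed an unadjusted p under 0.05. Of the 22, 7 were also called for the main effect: MALL, SESN2, PAQR8, STMN3, GDPD2 and 2 genes without a symbol. MALL (ENSCAFG00845007406), a raft protein related to MAL, was at 89.9, 123 and 155 CPM in control and 31.8, 39 and 61.2 CPM in Yoda1 libraries (log2 fold change -1.5 ± 0.22 SE, edgeR adjusted p = 0.001). Its log2 fold change was -2.17 at 12 h and -0.83 at 24 h, a difference of 1.34 (edgeR adjusted p = 0.013), with no overlap at either time. The difference was not called without C1 replicate 1 or 3 or T1 replicate 3 (adjusted p 0.052 to 0.093, difference 1.32 to 1.33). SESN2, a stress-induced inhibitor of mTOR, was at 18, 20.9 and 27.5 CPM in control and 12.3, 15.7 and 19.5 CPM in Yoda1 libraries (log2 fold change -0.45 ± 0.14 SE, edgeR adjusted p = 0.027), made up of -0.02 at 12 h and -0.88 at 24 h. Its main effect lost the call without C2 replicate 3 or T2 replicate 1, 2 or 3 (adjusted p 0.0543 to 0.074, log2 fold change -0.37 to -0.42). Its difference between times (-0.85, edgeR adjusted p = 0.042) was called without C2 replicate 1 or 2 or T2 replicate 1 and not without any of the other 9 libraries (adjusted p 0.073 to 0.18). The count of 22 was 362 without C2 replicate 1, 84 without C2 replicate 2, 0 to 9 without any 1 of C1 replicates 1 to 3, T1 replicates 1 to 3 and T2 replicates 2 and 3, 18 without C2 replicate 3 and 31 without T2 replicate 1. The fits with 0 left out C1 replicate 1 or T1 replicate 3, and in them edgeR gave 1140 and 1018 genes at an unadjusted p under 0.05.

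The count of called genes also varied with single libraries, from 2638 without T2 replicate 3 to 4244 without C2 replicate 2. Whichever of the 12 libraries was omitted, 2324 genes (63.9% of the 3638) were called, 1137 higher and 1187 lower. Of the 1266 genes called at neither time alone, 412 (32.5%) were called in all 12.

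**Figure D5:**
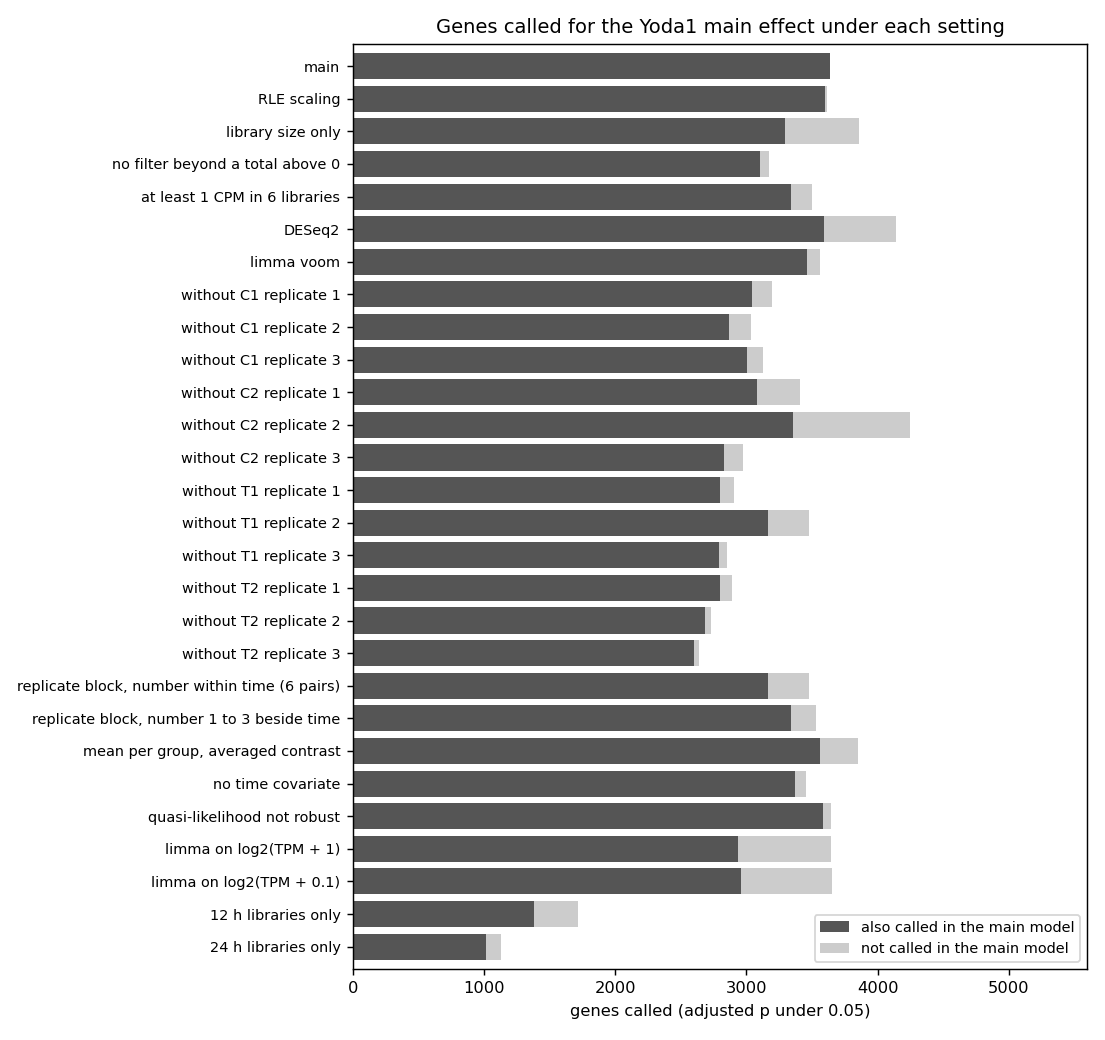
Number of genes called for the Yoda1 main effect (x axis, adjusted p under 0.05) in the main model and under each alternative (y axis), split into genes the main model also called (dark) and genes it did not (light). Fits that used both times called 2638 to 4244 genes, and fits to the libraries of 1 time called 1717 (12 h) and 1131 (24 h).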

How the data were processed

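Polyadenylated RNA of the 12 MDCK libraries was read as 101 bp pairs from stranded libraries, per the labels' protocols. The authors deposited expected counts per gene, not normalized, and TPM for the same genes. The submitters' processing notes list RSEM 1.3.3, STAR 2.7.10b and fastp 0.23.4. Genome build and gene annotation are not named there or in the labels. A deposited sample sheet (unit: other) gives condition, time and lane. The tables hold 31121 gene IDs, 13022 of them paired with a symbol by the authors, and of the count values 91.1% were whole. Values of multigene families are uncertain, as RSEM may share out reads among similar copies.

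Expected counts were rounded, filtered with filterByExpr by group (14169 genes left, 7682 with a symbol) and scaled by TMM in edgeR 4.0.16 (R 4.3.3). A robust quasi-likelihood model with terms for time and Yoda1 was fitted to all 12 libraries. Models with an interaction and with a mean per group gave the difference between times and the single times, which share libraries with the pooled value. P-values were adjusted by Benjamini-Hochberg over all genes tested, with calls at 0.05. Each SE was obtained from the F statistic, as the size of the log2 fold change over its square root. CPM are relative to the TMM-scaled library size. The common biological coefficient of variation came to 13.8%. In a test on simulated counts of the main effect over 14169 genes, 76% of 1.5-fold and 95% of 2-fold changes among 200 changed genes were recovered, with 12 false calls. The 200 were drawn from genes with a mean above 1 CPM, rising and falling alike. Far more genes were called in the data, most by less than 1.5-fold, so these shares do not carry over to low genes or smaller changes.

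The comparison and the 45 gene lists were chosen with earlier results of these data known, and no list was tested for enrichment. Genes with values follow a rule: CDH1, the 12 highest and 12 lowest changes and the 5 smallest p per direction without overlap at either time and with at least 5 CPM, 6 per direction called at neither time, 5 with the least difference between times, and up to 3 called members per list. Of these 149 genes, 111 were taken for description after their values were seen. Other list members are named by their call alone.

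Replicate numbers were checked as pairs by correlating deviations from the group means, and were not taken to pair the libraries. Alternatives were RLE and library size scaling, other filters, DESeq2 1.42.0, limma 3.58.1 (voom, and log2(TPM + 1) or log2(TPM + 0.1)), replicate blocks, single times, no time term, a non-robust fit and each library left out. Gene lists under these alternatives were added after seeing the data. No sequences or coordinates were used here.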

Additional observations from a re-analysis of the deposited data

Results flagged for a closer look

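A single library stood apart in 16 of 222 sets of 6 libraries (111 genes taken for description, control and Yoda1 sets each), by the gap to its nearest neighbour over the range of the 6, where chance alone gives about 1 set in 20. Of the 16, 6 were high values of C2 replicate 1: TRPM3 at 24.7 CPM, SLC23A1 at 6 CPM, IFT172 at 31.4 CPM, ANXA13 at 48.6 CPM, CCDC160 at 7.21 CPM and DAO at 76.3 CPM. The next highest controls were at 16.8, 1.61, 19.2, 20.5, 4.98 and 27.2 CPM in the same order. All 6 genes were lower with Yoda1. The call of DAO (log2 fold change -1.14 ± 0.38 SE, edgeR adjusted p = 0.048) was lost on omission of 11 of the 12 libraries in turn, and the calls of the other 5 held throughout.

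The other control values that stood apart were OAS2 at 217 CPM and TUBB4B at 546 CPM, both low in C2 replicate 3, and ETS2 at 63 CPM, high in C2 replicate 2. Among Yoda1 libraries, T1 replicate 1 was high for ITGB1 at 621 CPM and CDH1 at 788 CPM. T1 replicate 2 was high for MMP9 at 294 CPM and low for DUSP16 at 11.6 CPM. T2 replicate 1 was low for GLI1 at 2.9 CPM, T2 replicate 2 was low for EPGN at 0.141 CPM, and T2 replicate 3 was high for SF3B4 at 196 CPM. OAS2 lost its call without T2 replicate 2, and the other genes kept theirs whichever of the 12 libraries was omitted.

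The response differed between times by a test of the difference for MALL, by 1.34 on the log2 scale (edgeR adjusted p = 0.013), and for SESN2, by -0.85 (edgeR adjusted p = 0.042). The call for MALL was lost on omission of any 1 of 3 libraries and that for SESN2 on omission of any 1 of 9, and both were lost with a replicate block.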

How the results depend on the processing

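The direction of the Yoda1 effect was the same for the 111 genes taken for description under every alternative, and 2879 of 2994 values by gene and alternative kept their side of the threshold while 115 lost it, many of them in fits to the libraries of 1 time. The choice of these genes by their main effect in the same libraries favours such a result. Counts at 3638 called genes stayed within 1.5 times in every fit to both times: 3615 with RLE scaling, 3861 with library size, 3169 of 21324 genes with no filter, 3501 with at least 1 CPM in 6 libraries, 4143 with DESeq2, 3557 with limma voom, and 3642 and 3649 with log2(TPM + 1) and log2(TPM + 0.1). With the TPM fits the genes that fell numbered 1231 and 1243, and those at 2-fold or more fell to 13 higher and 40 lower with log2(TPM + 1) and 143 lower with log2(TPM + 0.1), on scales where the pseudocount shrinks low genes. Under both, 2 genes called in the main model were of the other sign, as was 1 in the fit to the 12 h libraries. With at least 1 CPM in 6 libraries, 22 genes rose and 133 fell at 2-fold or more, since that filter tests fewer low genes. The 12 h libraries alone gave 1717 genes (705 higher, 1012 lower, 24 higher at 2-fold) and the 24 h libraries alone 1131 (523 higher, 608 lower, 139 lower at 2-fold), with fewer samples in each fit. All 25 alternatives that use both times called 2050 genes (56.3% of 3638).

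The difference between times was the least stable count. Against 22 genes, it was 34 with no filter, 36 with at least 1 CPM, 228 with DESeq2 and 0 with the replicate block in edgeR (1566 at an unadjusted p under 0.05); the cause was not tested. With each library left out it ran from 0 to 362, the main effect from 2638 to 4244 (1278 to 2050 higher, 1360 to 2194 lower), 2-fold changes from 41 to 63 higher and 214 to 346 lower, and genes called at neither time from 825 to 1413.

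Correlations between same-numbered libraries were 0.129, 0.264 and 0.117 at 12 h, each the highest for its number, and 0.0637, -0.0712 and -0.0615 at 24 h, so the numbers were not taken as pairs. A replicate block of 6 pairs called 3473 genes, and a block of the numbers beside time 3527. With the 6 pairs, AREG, PTGS2, OAS2, SESN2, WNT5B and CTSL were not called, with the same direction, nor were ERRFI1, NOTCH1 and NRARP. With the same block, the difference between times had an adjusted p of 0.12 for MALL and 0.14 for SESN2. Depth limits calls of low genes, whose standard errors are larger, and intervals cover only the spread between these libraries.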

Other observations

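Control libraries varied more among themselves than Yoda1 libraries did, by less at 12 h than at 24 h. Over 10413 genes with a mean of at least 5 CPM, the median SD of log2 CPM within a group was 0.107 in C1 and 0.159 in C2, against 0.1 in T1 and 0.0845 in T2. The SD pooled over the times was larger in controls for 74% of these genes, for 77.1% of 1434 that fell and for 69.2% of 1638 that rose. The SD within a group was larger in controls at 12 h and also at 24 h, both for the same gene, for about 4510 of the 10413. Genes share libraries here, so these shares describe 12 libraries and carry no test.

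Among the 111 genes taken for description, different controls were the highest for different genes. C1 replicate 3 and C2 replicate 2 were the highest controls for 15 genes, among them MMP9, PLAU, F3, ITGA6, ITGB1 and CDH1. C2 replicates 1 and 3 were the highest for 18 others, among them TRPM3, ANXA13, TCN2, ATP1B1 and SLC23A1, and C1 replicate 3 with C2 replicate 1 for 18 more, among them FN1, WNT5A and PIGR. These genes were picked out after their values were seen. MMP9 was at 592, 724, 1090.0, 349, 1098, 488 CPM in C1 replicates 1 to 3 and then C2 replicates 1 to 3, and TCN2 at 121, 176, 116, 292, 96.9, 194 CPM in C1 replicates 1 to 3 and then C2 replicates 1 to 3, so the controls that were high for the first gene were low for the second. All genes named so far in this comparison of controls were lower in the Yoda1 libraries, but the same sets also held genes that rose. Among these were PLEC, TXNRD1 and MBNL2 in the first set, CRYAB, BUB1 and AURKA in the second, and FHDC1 and SLC35G2 in the third.

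The second principal component (13.6% of the variance) separated libraries within every group and not Yoda1 from control. Its scores were 15.6, -31.1 and 21.3 in C1 replicates 1 to 3, 2.49, 21.5 and -15.2 in C2, 19.8, -17.1 and 6.76 in T1 and 14, -30.9 and -7.04 in T2. The most negative score of each group was that of replicate 2 in C1, T1 and T2 and replicate 3 in C2. No label gives a culture, extraction or preparation batch for them.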
